A study of Homo sapiens with 21 samples.

Results

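EGR1, SRF, KLF4, KLF6, KLF10, IER2, IER3, IER5, MCL1 and ZFP36L2 are 10 genes of the early response to growth factors and stress, 10 of the 19974 protein-coding genes examined. They were taken by name, and every ChIP-seq peak inside them, within 1 kb of their ends or up to 20 kb outside them (hg38) was collected. That gave 511 of the 702826 peaks in 14 deposited lists. The genes had been selected on the FGFR1 peaks of untransfected cells, so those peaks are given below as a description and carry no test. MCL1 and ZFP36L2 belong to none of the EGR, SRF, KLF and IER families and stand here because the selection names them.

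CAMA1 is an ER+/FGFR1-amplified breast cancer cell line, and it was the only line used. Chromatin immunoprecipitation was run in duplicate for 7 groups. FGFR1 was precipitated from cells transfected with siFOXA1, from cells transfected with the control siNT, and from untransfected cells. H3K27ac, H3K4me3, Pol II S5P and FOXA1 were precipitated from untransfected cells only. All cells spent 48 h in medium without estradiol before collection and were below passage 10. Transfected cells were collected 72 h after transfection, and FOXA1 itself was not measured in them here. The antibody of the libraries labelled Pol II S5P is named as anti-Rpb1 CTD (4H8). Whether duplicate libraries stem from different dishes of cells is not recorded, and p-values measure only the spread between them, which may be technical.

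Early-response genes are switched on within minutes by signals such as growth factors, from promoters that are kept open in advance. EGR1 is a zinc finger transcription factor, and SRF is the factor that binds CArG boxes in the promoters of many such genes, together with cofactors of the ELK and MRTF families. KLF4, KLF6 and KLF10 are zinc finger factors that bind GC-rich sites. IER2, IER3 and IER5 are short genes for early-response regulators. MCL1 encodes a short-lived anti-apoptotic relative of BCL2, and ZFP36L2 encodes a protein that marks AU-rich messenger RNAs for decay. FGFR1 is a receptor tyrosine kinase of the cell surface that has also been found in the nucleus, and FOXA1 is a pioneer factor that opens enhancers in luminal breast cells. H3K4me3 marks gene starts, H3K27ac marks active promoters and enhancers, and Pol II S5P is RNA polymerase II at the beginning of transcription.

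The promoters of 5 of the genes are printed because an untransfected FGFR1 region covered each of these windows, at least in part, and because their sequences differ in the classes of element they hold. They run 5′ to 3′ from 250 bases before to 50 bases after the start site, from RefSeq (GRCh38.p14), and capitals mark CArG boxes and the GC box GGGCGG on either strand. The windows lie at chr5:138465229-138465528 (EGR1, plus strand), chr6:43171019-43171318 (SRF, plus strand), chr9:107489720-107490019 (KLF4, minus strand), chr10:3785160-3785459 (KLF6, minus strand) and chr1:181088450-181088749 (IER5, plus strand).
EGR1: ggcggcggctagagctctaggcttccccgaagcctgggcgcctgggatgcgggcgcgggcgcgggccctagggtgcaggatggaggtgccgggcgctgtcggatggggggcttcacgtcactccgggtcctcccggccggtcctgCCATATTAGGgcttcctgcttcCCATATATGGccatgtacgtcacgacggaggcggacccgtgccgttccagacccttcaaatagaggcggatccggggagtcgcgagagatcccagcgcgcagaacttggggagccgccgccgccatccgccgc
SRF: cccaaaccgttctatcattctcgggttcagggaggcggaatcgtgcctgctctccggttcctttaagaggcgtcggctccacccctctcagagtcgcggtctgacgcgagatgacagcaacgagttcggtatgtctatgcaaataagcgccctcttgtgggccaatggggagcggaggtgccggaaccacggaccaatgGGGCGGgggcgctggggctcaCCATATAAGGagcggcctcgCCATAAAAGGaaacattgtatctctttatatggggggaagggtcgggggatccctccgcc
KLF4: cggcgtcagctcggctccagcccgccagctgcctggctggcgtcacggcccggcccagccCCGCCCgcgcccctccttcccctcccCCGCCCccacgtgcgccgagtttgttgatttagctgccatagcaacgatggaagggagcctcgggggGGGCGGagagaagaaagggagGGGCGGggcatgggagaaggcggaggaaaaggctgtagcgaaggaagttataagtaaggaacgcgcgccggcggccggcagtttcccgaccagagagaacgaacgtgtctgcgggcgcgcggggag
KLF6: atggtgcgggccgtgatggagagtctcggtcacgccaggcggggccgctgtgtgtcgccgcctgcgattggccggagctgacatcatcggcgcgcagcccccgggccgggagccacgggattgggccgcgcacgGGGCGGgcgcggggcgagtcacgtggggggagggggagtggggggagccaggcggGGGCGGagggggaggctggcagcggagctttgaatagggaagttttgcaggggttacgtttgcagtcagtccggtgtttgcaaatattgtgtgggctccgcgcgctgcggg
IER5: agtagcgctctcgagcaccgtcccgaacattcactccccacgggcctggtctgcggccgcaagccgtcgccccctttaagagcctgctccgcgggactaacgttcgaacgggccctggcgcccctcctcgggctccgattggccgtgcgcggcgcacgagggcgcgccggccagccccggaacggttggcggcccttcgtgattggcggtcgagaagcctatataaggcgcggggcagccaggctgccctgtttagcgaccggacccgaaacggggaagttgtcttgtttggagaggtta
EGR1 and SRF each held 2 CArG boxes. Their first bases lay at -105 and -83 from the start site in EGR1, and at -30 and -10 in SRF. CArG boxes were found in 1.25% of 22156 promoters of protein-coding genes, and 8 of those promoters, 0.0361%, held 2 or more. KLF4 held 4 copies of GGGCGG, KLF6 held 2, SRF held 1, and EGR1 and IER5 held none, while 56.3% of all promoters held at least 1. The EGR-type motif GCGNGGGCG, found in 12.2% of promoters, occurred once in each of EGR1, SRF, KLF4 and KLF6. In SRF, KLF4 and KLF6 it overlapped a GGGCGG copy. The forkhead-type motif TGTTTNC, found in 15.3%, occurred in KLF6 at 13 and in SRF at -2 and in none of the windows of EGR1, KLF4 and IER5. Of the other genes, IER2 had 4 copies of GGGCGG and no CArG box, and the downstream window of SRF held none of these motifs. IER3, KLF10, MCL1 and ZFP36L2 had no entry.

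Each deposited list gives peaks of 1 library, with the authors' fold enrichment of a peak's summit over the background of that library (a linear ratio). The background, recovered from the spacing of the fold values, was 2.11 and 2.2 fragments per position in siFOXA1 libraries, 2.19 and 2.19 in siNT libraries and 2.53 to 4.33 in the other 10. The siFOXA1 lists held 4332 and 5056 peaks, the siNT lists 6007 and 6594, and the untransfected FGFR1 lists 5341 and 13135. The weakest peaks listed held 10 fragments in all 4 transfected libraries, against 14 and 12 in the untransfected FGFR1 libraries. A missing peak below therefore means signal under the authors' threshold and does not show an absence of FGFR1. Of markers of cell identity, 9 of 10 luminal breast genes had H3K4me3 and H3K27ac at an end in both lists, the exception being ESR1 (no H3K4me3). The same marks stood at 4 of 10 basal or mesenchymal and 2 of 10 haematopoietic genes, and Pol II S5P at 8, 0 and 0 genes of these lists.

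FGFR1 in untransfected cells lay on the starts of 9 of the 10 genes, and at IER2 it lay inside the gene. Across those 9 starts the strongest peaks ran from 6.82 to 10.0 fold in library 1 and from 11.1 to 15.1 fold in library 2. The median was 7.73 in library 1 and 13.8 in library 2, which is the 83.0 and 95.9 percentile of all peaks of those lists. A region is counted here where peaks of both libraries of a group overlap by at least 1 bp, and an end is the stretch 1 kb to either side of a gene's first or last base. By that count 9 of the 10 genes had an FGFR1 region at an end, and 19.9% of all protein-coding genes did. The choice of genes fixes this count, and nothing is read from it. The 10 loci held 17 FGFR1 regions, 12 at ends, 3 inside genes and 2 outside.

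The transcription factor genes differed little in FGFR1 strength and more in the layout of the peaks. EGR1 (chromosome 5, 138465479 to 138469303) had folds of 7.73 and 14 in untransfected libraries 1 and 2. The merged region was 1889 bp wide, the 98.9 percentile of widths among genes with FGFR1. That width came from the single peak of library 2, and library 1 had separate peaks of 394 and 1114 bp. SRF (chromosome 6, 43171269 to 43181506) had 9.55 and 12.9 at the start, with summits 118 and 104 bp downstream of the start site. It held a weaker region inside the gene (5.69 and 6.22) and another region beyond its last base that also touches an end of CUL9 (7.28 and 8.44).
KLF4 (chromosome 9, 107484852 to 107489769) had 7.28 and 12.2. KLF6 (chromosome 10, 3775996 to 3785209) had 7.05 and 12.7. Each of these 2 genes had its start as the only FGFR1 site of its locus. KLF10 (chromosome 8, 102648784 to 102655725), a gene known for induction by TGF-beta, had 8.87 and 14.2 at the start and another region with summits 1767 and 1779 bp downstream (8.19 and 11.3). In every one of these 5 genes library 2 was higher than library 1, as at all 9 starts with a peak. The list of library 2 was also longer as a whole, with 13135 peaks against 5341.

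Among the IER genes, IER5 (chromosome 1, 181088700 to 181092900) had 10.0 and 13.8 at its start and another strong region far downstream, described further on. IER3 (chromosome 6, 30743199 to 30744547), known as a stress-inducible regulator of cell survival, had 6.82 and 15.1 at its start. It had 7.73 and 21.3 at its other end, in a region that also touches an end of FLOT1, and a peak there cannot be assigned to IER3 rather than FLOT1. IER2 (chromosome 19, 13150411 to 13154911) had no FGFR1 peak within 1 kb of its start in any of the 6 FGFR1 libraries. Near its last base untransfected library 2 alone had peaks (7.55 and 4.66). Its 2 regions stood inside the gene, with folds of 3.64 and 8.88 at 1528 and 1551 bp from the start site and of 8.64 and 13.5 at 2651 and 2666 bp. MCL1 (chromosome 1, 150574558 to 150579610) had 7.96 and 11.1 at its start, and a weaker region next to ADAMTSL4 (6.14 and 6.22). ZFP36L2 (chromosome 2, 43222402 to 43226606) had 7.28 and 14 at its start and no other region.

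**Figure D1:**
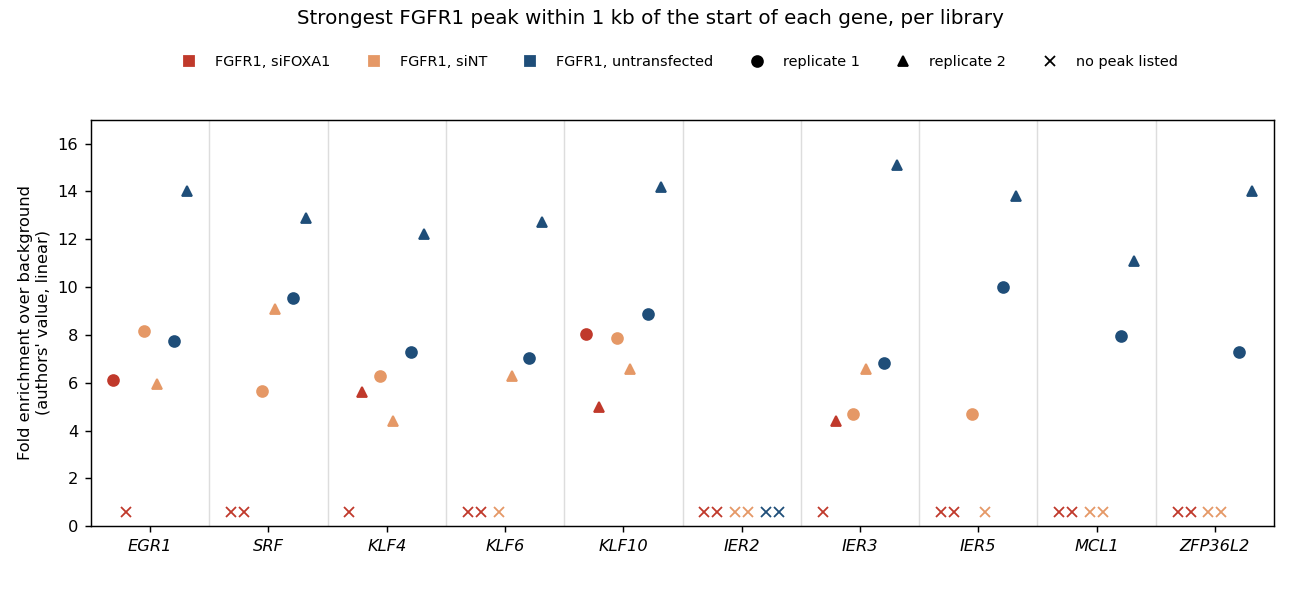
Strongest FGFR1 peak within 1 kb of the start of each gene, as the authors' fold enrichment (linear, vertical axis), with 1 point per library for siFOXA1, siNT and untransfected cells; a cross means no peak was listed. All 9 genes with a peak in untransfected cells had it in both libraries, at 6.82 to 15.1 fold, and KLF10 alone had a peak in both siFOXA1 libraries (8.04 and 5).

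All 10 genes carried H3K27ac, H3K4me3 and Pol II S5P at an end in both libraries. Over all protein-coding genes these shares were 67.5% for H3K27ac, 66.6% for H3K4me3 and 38.9% for Pol II S5P. At the gene starts H3K27ac reached 34.7 to 63.5 fold in library 1 and 36.5 to 65.6 in library 2, at or above the 96.4 percentile of its lists at every gene. At IER2 the H3K27ac and H3K4me3 regions on the start also touch an end of STX10. EGR1 had the highest H3K27ac of library 1 (63.5) and MCL1 that of library 2 (65.6), at a summit 17867 bp downstream of the MCL1 start in a domain that runs on to ADAMTSL4. H3K4me3 reached 92.9 to 107 fold in library 1 and 94.4 to 111 in library 2, with SRF at the upper bound of both and KLF4 at the lower, shared with KLF6 in library 1. All these folds belong to peaks that reach into the start window, and a summit can lie outside it. For H3K4me3 at IER2 the summits lay 3427 and 3418 bp downstream of the start site. The H3K4me3 summits held at least 332 fragments, close to the highest pileup in either H3K4me3 list (400 fragments), so little is read from their narrow range.

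Pol II S5P was high at IER5 (23.7 and 23.1), MCL1 (23 and 22.6) and IER3 (26.7 and 18.8). KLF6 followed with 19.0 and 14.8, then KLF10 with 16.2 and 12.8 and EGR1 with 15.9 and 13. ZFP36L2 had 14.6 and 10.6, and KLF4 had 10.4 and 11.2. SRF had 10.4 and 7, the lowest value of library 2 at a start. IER5, MCL1 and IER3 exceeded the other starts in each library, although the lower IER3 value lay just under the higher KLF6 value. KLF10 and EGR1 differed from each other by less than the libraries of each. At EGR1 the higher of 2 Pol II S5P regions lay upstream, with summits at -1414 and -1417 bp, and the region on the start itself had 10.9 and 8.57. IER2 was set apart in the same way as for FGFR1. Its start window held 7.80 in library 1, in a peak that also touches an end of STX10, and no peak in library 2. Its strongest Pol II S5P summits lay at 2674 and 2655 bp inside the gene with 28.1 and 19.5 fold.

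**Figure D2:**
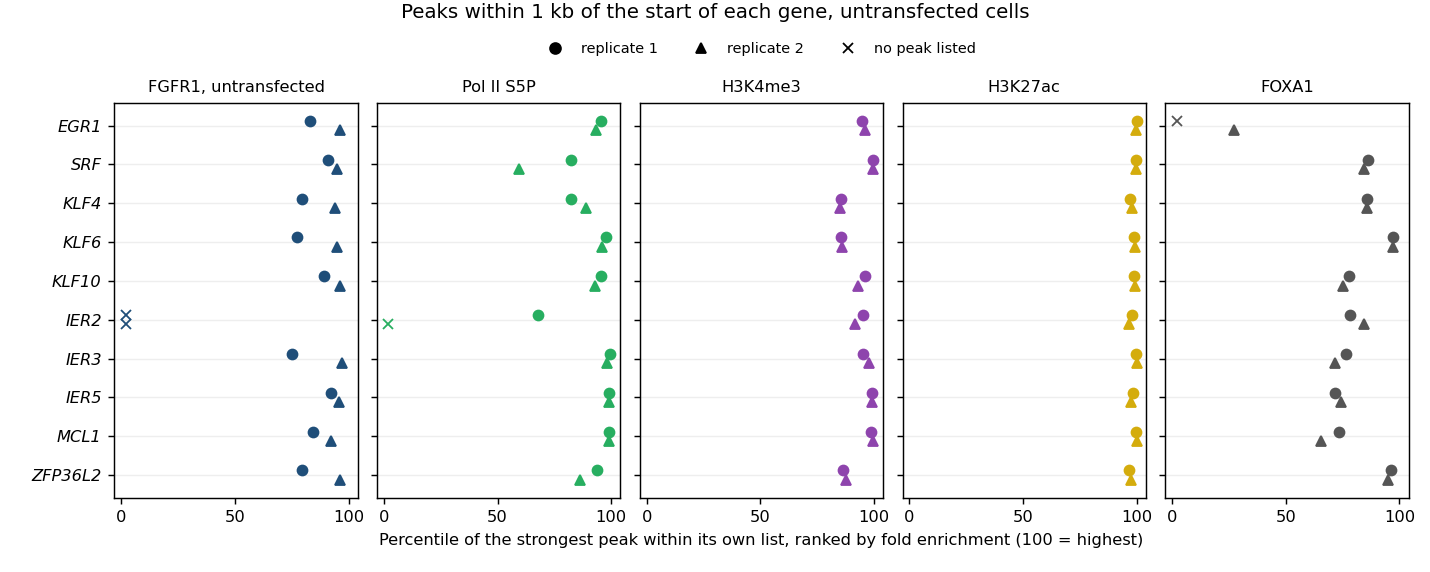
Percentile of the strongest peak within 1 kb of each gene's start among all peaks of its own list, ranked by fold enrichment (horizontal axis), in untransfected cells, 1 point per library; a cross means no peak was listed. H3K27ac sits at or above 96.4 for every gene, FGFR1 at 75.3 to 97.1 for the 9 genes with a peak, and FOXA1 spreads from 27.4 to 97.2.

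The histone domains of these genes were wide beside those of all protein-coding genes with the mark. All 10 genes also carried Pol II S5P at an end, which 38.9% of all protein-coding genes did. Widths among genes with Pol II S5P alone were not compared. The widest H3K4me3 region touching a gene had a median of 5086 bp over the 10 genes, against 2453 bp over the 14815 protein-coding genes with such a region. ZFP36L2 had 8909 bp (99.7 percentile), IER2 had 7372 bp (99.3) and MCL1 had 5943 bp (98). EGR1 had the narrowest of the 10, at 3307 bp (77.6). For H3K27ac the median was 9403 bp over the 10 genes and 2736 bp over all marked genes, with MCL1 at 22868 bp and IER3 at 19961 bp above the others and IER5 lowest at 4390 bp. The order of the genes thus differed between the marks: IER3 was near the top for H3K27ac, and for H3K4me3 only EGR1 was narrower than IER3 (3578 bp). Some of these regions also touch an end of a neighbour, so their width cannot be assigned to the named gene alone. These are STX10 for IER2 (H3K4me3), FLOT1 for IER3 (both marks) and ADAMTSL4 for MCL1 (H3K27ac). Pol II S5P regions had a median of 1198 bp against 610 bp, and FOXA1 regions, at the 9 genes that had one, 545 bp against 525 bp.

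**Figure D3:**
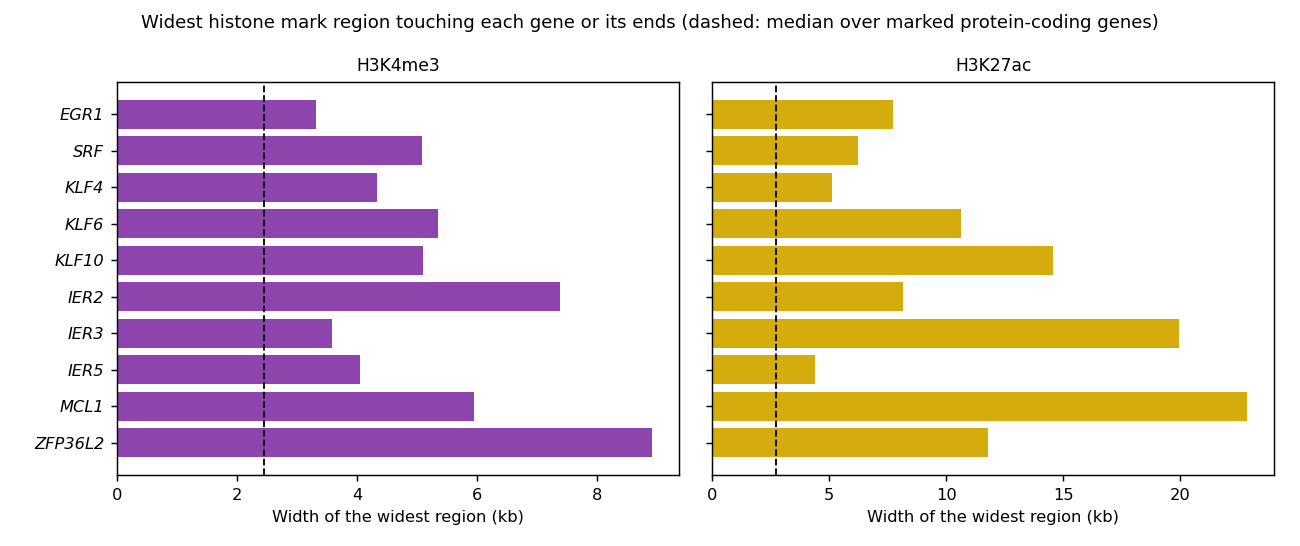
Width in kb of the widest H3K4me3 (left) and H3K27ac (right) region present in both libraries that touches each gene or its ends, 1 bar per gene, with the median over all marked protein-coding genes dashed. All 10 genes lie above the dashed line for both marks, from 3307 bp (EGR1) to 8909 bp (ZFP36L2) for H3K4me3.

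FGFR1 summits lay close to Pol II summits. Over the FGFR1 peaks inside the 10 genes or at their ends, the median distance to the nearest Pol II S5P summit was 58.0 bp in library 1 (15 peaks) and 116 bp in library 2 (20 peaks). Over all FGFR1 peaks at gene ends it was 96.0 and 110 bp. That set leaves out peaks inside genes, which count for the 10 genes, such as the SRF peak at 2972 and 3168 bp. The sets are thus unlike for every target here, and no order between the sets is read from any of these medians. The nearest FOXA1 summit was farther away, at a median of 281 bp in library 1 and 224 bp in library 2, against 632 and 813 bp over all FGFR1 peaks at gene ends. For H3K4me3 the medians were 714 and 736 bp at the 10 genes, and 322 and 302 bp over all gene ends. For H3K27ac they were 653 and 732 bp at the 10 genes, and 250 and 240 bp over all gene ends. At ZFP36L2 the FGFR1 summits stood at 59 and 36 bp from the start site, and at MCL1 at 39 and 72 bp. KLF6 and EGR1 were the least regular, with FGFR1 summits at -395 and -86 bp in KLF6 and at 52 and -557 bp in EGR1. The untransfected FGFR1 regions of EGR1 and SRF covered both CArG boxes of each promoter shown above. These distances are descriptions, and peaks of a gene share its locus.

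**Figure D4:**
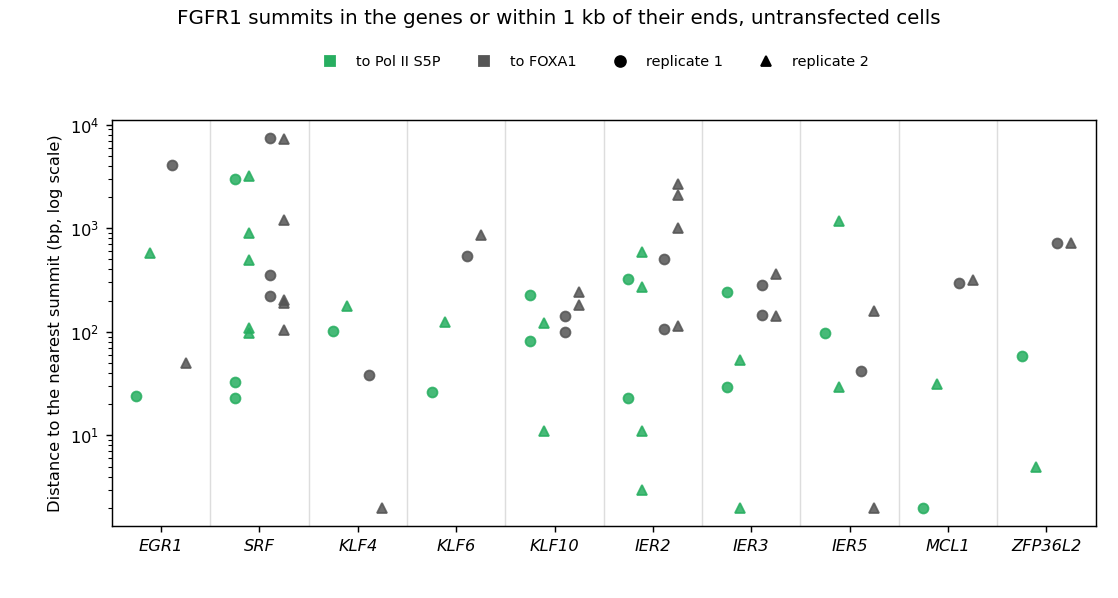
Distance in bp (log scale) from each untransfected FGFR1 summit inside a gene or within 1 kb of its ends to the nearest Pol II S5P summit and the nearest FOXA1 summit of the same replicate number, 1 point per FGFR1 peak. The distances to Pol II S5P have medians of 58.0 and 116 bp, and those to FOXA1 medians of 281 and 224 bp in libraries 1 and 2.

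All 17 FGFR1 regions of the 10 loci overlapped H3K27ac and H3K4me3, and 16 (94.1%) overlapped Pol II S5P. The exception was the region inside SRF, where FOXA1 was strong (24.4 and 20.6). FOXA1 overlapped 11 of the 17 (64.7%). Over all 4736 FGFR1 regions the shares were 96.1% for H3K27ac, 95.3% for H3K4me3, 83.1% for Pol II S5P and 44.0% for FOXA1. The 17 regions were part of the selection and several share a locus, so these shares are a description.

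FOXA1 was found in both libraries at an end of 9 of the 10 genes, the exception being EGR1, and at an end of 32.3% of all protein-coding genes. Among the 7742 genes with H3K4me3 and Pol II S5P at an end, which all 10 are, that share was 53.2%. EGR1 stood apart from the rest of the group. Its only FOXA1 peak at the start was in library 2, at 4.50 fold, and the strongest FOXA1 region of its locus by the mean of both libraries had 4.38 and 5.44 fold at 23223 and 23137 bp downstream of the start.
The other 9 genes had their strongest FOXA1 site in several kinds of place. KLF4 had it upstream, at -15253 and -15240 bp (57.4 and 51.2 fold). MCL1 had it inside the gene, at 3564 and 3575 bp (57.0 and 54.0). KLF6 had 42.4 and 40.5 fold with summits at 1136 and 1113 bp, and ZFP36L2 had 38.4 and 31.9 at -667 and -683 bp. Those 4 sites lie well above the FOXA1 peaks of EGR1 in both libraries.
IER5 had 36.5 and 33 at -4406 and -4417 bp, and IER3 had 30.3 and 26.1 at -3980 and -3938 bp. KLF10 had 33 and 35.8 near its last base, SRF had 24.4 and 20.6 inside the gene, and IER2 had 13.6 and 16.9 at its start. The IER2 site also lies within 1 kb of an end of STX10 and cannot be assigned to IER2 rather than STX10. Of these 10 strongest FOXA1 sites 2 overlapped an FGFR1 region, in SRF and ZFP36L2. All 10 overlapped H3K27ac.

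The 10 loci held 61 FOXA1 regions, 2 (SRF) to 10 (IER5) per gene. H3K27ac covered 54 of them (88.5%), H3K4me3 30 (49.2%), Pol II S5P 14 (23%) and FGFR1 11 (18.0%). Over all 104200 FOXA1 regions the shares were 50.4% for H3K27ac, 21.4% for H3K4me3, 3.96% for Pol II S5P and 2.10% for FGFR1. The 10 loci were chosen around active gene starts, so these shares describe FOXA1 near such starts and do not compare like with like. Seen from the genes, 8 of 10 had a FOXA1 region with H3K27ac 1 to 20 kb outside the gene, against 46.8% of all genes, and the exceptions were SRF and KLF6.

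**Figure D5:**
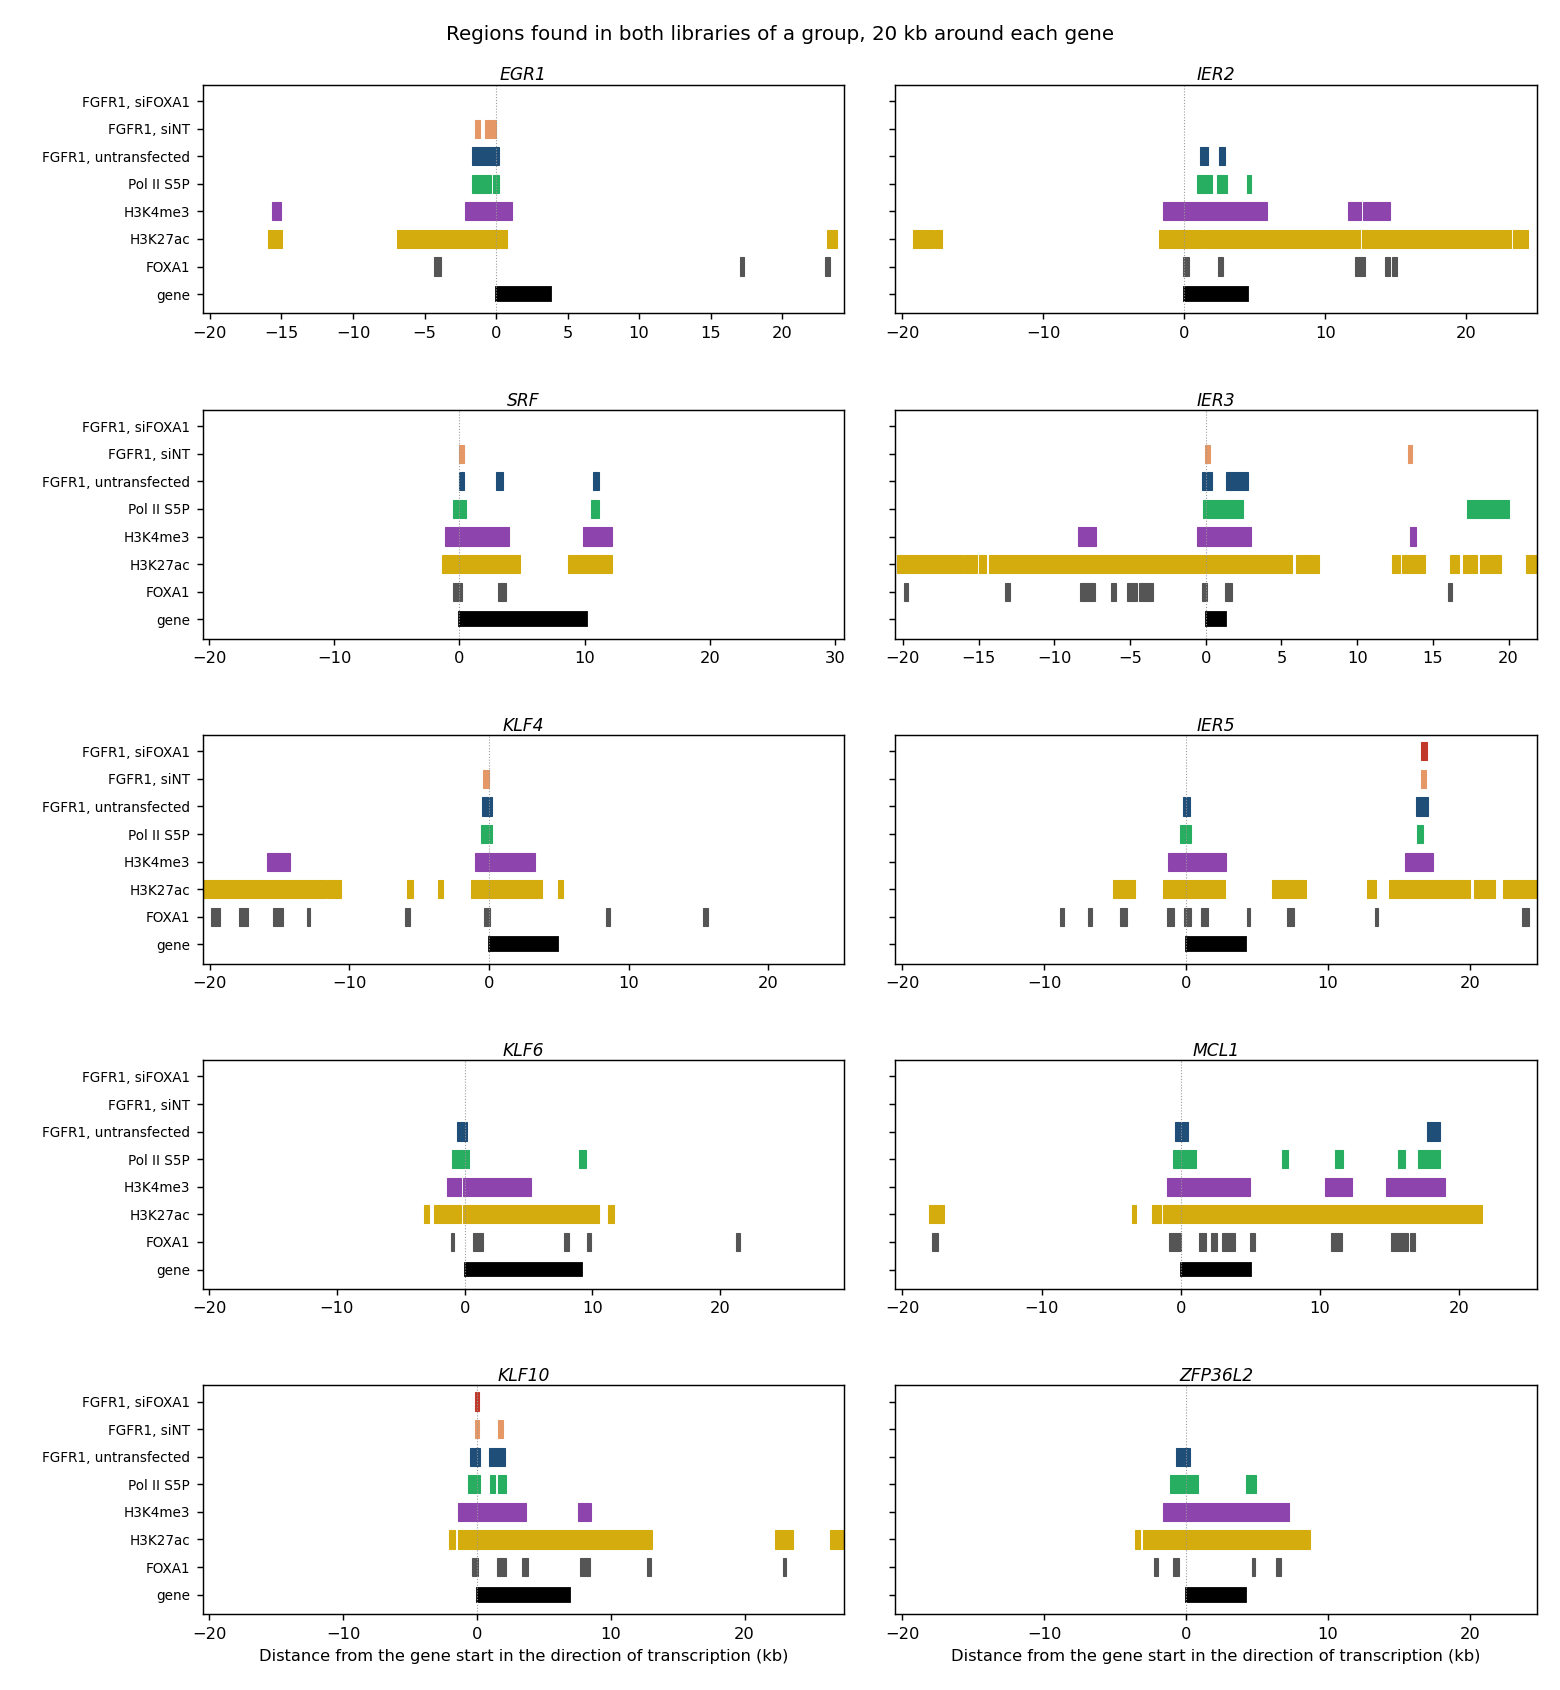
Maps of the 10 loci, with position as distance in kb from the gene start in the direction of transcription (horizontal axis) and, from top to bottom, regions found in both libraries of FGFR1 after siFOXA1, FGFR1 after siNT, FGFR1, Pol II S5P, H3K4me3, H3K27ac and FOXA1 in untransfected cells, and the gene. The 17 untransfected FGFR1 regions line up with Pol II S5P in 16 cases, and regions after siFOXA1 remain visible at the KLF10 start and downstream of IER5.

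Fewer of these genes had FGFR1 at an end after FOXA1 knockdown, and the same held over all genes. In siFOXA1 libraries 2 and 3 of the 10 genes had an FGFR1 peak at an end (2.5 ± 0.707, SD, n = 2), against 6 and 6 in siNT libraries (6 ± 0, n = 2). The groups did not overlap. The difference was -3.5 genes, with a p of 0.333 in the exact two-sided permutation test, which is the smallest p that 2 against 2 libraries allow, so the test cannot pass a threshold of 0.05. The ratio of the means was 0.417 for the 10 genes. Over all protein-coding genes it was 0.483, from 847 and 716 genes with siFOXA1 and 1509 and 1727 with siNT. In percent, FGFR1 stood at an end of 4.24% and 3.58% of all genes with siFOXA1, and of 7.55% and 8.65% with siNT. Among the 3981 genes with untransfected FGFR1 at an end, 9 of these 10 included, the shares were 18.8% and 15.6% with siFOXA1, and 32.2% and 35.7% with siNT.

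Peaks seen in both libraries of a group were fewer still. With siFOXA1, KLF10 alone had such a region at an end (1.95% of all genes did). With siNT, EGR1, SRF, KLF4, KLF10 and IER3 did (5 of 10, and 4.85% of all genes). Of the 9 genes with untransfected FGFR1 at an end, 1 had such a region with siFOXA1, against 9.52% of all genes with untransfected FGFR1 there, and 5 had one with siNT, against 22.3%. SRF had no siFOXA1 peak listed at an end in either library, as did 32.9% of the 968 genes with a siNT region. EGR1, KLF4 and IER3 had a siFOXA1 peak in 1 library, as did 27.3% of those genes, and KLF10 had one in both, as did 39.9%. At a -log10 q of at least 5 the count with siFOXA1 was 0 and that with siNT was 3. The shares over all genes at that threshold are not given here, so nothing about these genes is read from these counts.

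KLF10 kept a peak on its start in every library. Its folds were 8.04 and 5 with siFOXA1 (24 and 15 fragments at the summit) and 7.85 and 6.58 with siNT (24 and 20 fragments), so the groups overlapped. Its downstream region had 6.11 fold in siFOXA1 library 1 and no peak in library 2, against 6.28 and 7.52 with siNT.
SRF differed from KLF10 in its lists. No peak was listed at the SRF start in either siFOXA1 library, against 5.65 and 9.08 fold with siNT (17 and 28 fragments). The lowest folds listed anywhere were 3.54 and 3.44 with siFOXA1, and 3.45 in both siNT lists.
At EGR1 the start carried 6.11 fold in siFOXA1 library 1 and no peak in library 2, against 8.16 and 5.95 with siNT. A further EGR1 region lay just beyond the 1 kb window, with 4.69 fold at -1226 bp in siFOXA1 library 2 and no peak in library 1, against 6.90 and 5.33 at -1250 and -1280 bp with siNT. Each siFOXA1 library thus held 1 of the 2 EGR1 regions that both siNT libraries held.
KLF4 had no peak in siFOXA1 library 1 and 5.63 in library 2, against 6.28 and 4.39 with siNT. IER3 had no peak in siFOXA1 library 1 and 4.38 in library 2 at its start, against 4.71 and 6.58 with siNT. Its other end, shared with FLOT1, had a peak in siNT library 2 only (7.83). At the starts, for KLF4 the siFOXA1 peak lay between the siNT values, and for IER3 it lay below both.
IER5 had no siFOXA1 peak at its start, against 4.71 in siNT library 1 and no peak in library 2. KLF6 had none with siFOXA1, against no peak in siNT library 1 and 6.27 in library 2. MCL1 and ZFP36L2 had no start peak in any transfected library, although untransfected cells had 7.28 to 14 fold there, so no difference between siFOXA1 and siNT can be seen at these 2 genes. IER2 had a peak of 5.47 inside the gene in siFOXA1 library 1 only, against 5.02 at the matching place and 4.71 farther in, both in siNT library 1 only.

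The surroundings of the genes also differed in FGFR1. In the 1 Mb around a gene, the 4 transfected lists together held 0 peaks at ZFP36L2 and 3 each at KLF4 and KLF6, against a genome mean of 7.26 per Mb. The other 7 genes lay in denser surroundings, from 18 peaks at KLF10 and 20 at MCL1 to 29 at SRF and 36 at IER3. The part of this local density in the results was not tested.

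FGFR1 stood outside the gene and its ends at 2 of the 10 loci, IER5 and MCL1, and at 15.8% of all genes. With siFOXA1 this was IER5 alone (3.03% of all genes), and with siNT it was IER5, IER3 and EGR1 (6.29%). Inside the gene and away from its ends, untransfected FGFR1 stood at SRF and IER2, and at 3.52% of all genes. The IER5 site (chromosome 1, 181104883 to 181105736) lay 16774 and 16769 bp downstream of the IER5 start and was listed in all 6 FGFR1 libraries. Its folds were 6.43 and 7.82 with siFOXA1, 5.02 and 7.83 with siNT, and 10.0 and 16.0 in untransfected cells. The siFOXA1 and siNT values overlapped. It carried H3K4me3 (103 and 102 fold), H3K27ac (53.4 and 51.8) and Pol II S5P (9.56 and 8.79) within the range of the 10 gene starts, and no FOXA1 region overlapped it. The gene table has no end of a protein-coding gene within 1 kb of it.
The MCL1 site, at an end of ADAMTSL4, had 4.38 fold in siFOXA1 library 2 and 4.39 in siNT library 2, and no peak in library 1 of either group. At IER3 a region of the siNT libraries (chromosome 6, 30730926 to 30731186; 5.02 and 6.89 fold, 13502 and 13449 bp downstream of the start) had no peak in either siFOXA1 library and none in untransfected cells. It overlapped H3K27ac (14.6 and 13.6) and H3K4me3 (12 and 11.9), and no FOXA1 or Pol II S5P region.

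FGFR1 also stood at some relatives of these genes. Of 20 paralogs 17 had H3K4me3 and H3K27ac at an end and 6 had FGFR1 (IER5L, KLF2, KLF3, ZFP36, BCL2L1 and BCL2L2), against 19.9% of all protein-coding genes. Pol II S5P stood at an end of 10 of the 20, all with H3K4me3, and of each of the 6 but BCL2L2. Among all genes with H3K4me3 and Pol II S5P at an end, 47.6% had FGFR1. IER5L was the strongest at 9.78 and 15.1 fold in untransfected cells, close to IER5 (10.0 and 13.8). EGR2, EGR3 and EGR4 had both histone marks but neither FGFR1 nor Pol II S5P in both libraries, unlike EGR1. For H3K27ac EGR2 had a peak at an end in library 1 only (18.9) and counts through a merged region. None of the 20 had an FGFR1 region in both libraries of siFOXA1 or of siNT. Of 6 cofactors of SRF, ELK4 (4.78 and 9.33) and MRTFA had FGFR1, both weaker than SRF in either library. Of 30 other immediate early genes 14 had FGFR1 at an end in untransfected cells, 4 with siFOXA1 (JUNB, MYC, DUSP1 and PIM1) and 8 with siNT. Over all protein-coding genes these shares were 19.9%, 1.95% and 4.85%. Pol II S5P stood at an end of 17 of the 30, all with H3K4me3, and the 14 with FGFR1 were among these 17. The 47.6% is a share of such genes only. This list was chosen with earlier results known, so nothing is read from the count. Of the 14, DUSP6 had an FGFR1 peak at an end in library 2 only (7.77) and counts through a merged region. JUNB, a partner in the AP-1 factor, had the strongest FGFR1 of that list, 14.8 and 15.6 fold with siFOXA1 and 15.7 and 15.4 with siNT, values above every transfected value of the 10 genes.

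The protein-coding genes whose peaks over the 14 lists were most like the median of the 10 were PACS1, KRT19, ATF1, RAB24 and SRSF3. Likeness was the mean absolute difference, over the 14 lists, of the within-list percentile of the strongest peak at an end, with a missing peak set to 0. It was 4.12, 4.32, 4.66, 5.01 and 5.05 percentile points for these 5 genes, against a median of 44.8 over all genes and 22.2 over genes with FGFR1 at an end. The 10 genes themselves ran from 7.13 (IER5) and 7.5 (SRF) to 20.9 (IER2) and 21.5 (EGR1), so EGR1 and IER2 were the least typical of their own group.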

How the data were processed

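ChIP-seq peak lists of 14 libraries from CAMA1 cells (7 groups of 2) were used, and the 7 input libraries were not used here. Per the submitters' processing notes, the build was hg38 and Bowtie2, SAMtools, Picard and MACS2 were used, with versions and roles not given in the sources used here. The authors deposited 1 list per library, so peaks were called per library, with a fold enrichment (a linear ratio), a -log10 p-value and a -log10 q-value for each peak. Names written in the peak rows give other replicate numbers for both untransfected FGFR1 libraries, name another IP library as the comparison for library 2, and read FOXA2 in the FOXA1 lists; the labels were followed. Depth was taken as the background that the authors' fold grid and Poisson p-values imply, 2.11 to 4.33 fragments per position. Pol II S5P pileups had been scaled to a common background of 2.23.

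Peaks on chromosomes 1 to 22 and X were kept, leaving out 0.0227% to 2.74% of a list. The gene table (RefSeq, GRCh38.p14, the primary assembly of hg38) gives neither strand nor exons, so whether a peak is exonic or intronic is not given. Strand came from the RefSeq promoter table for 6 genes, and general knowledge placed the start of IER3, KLF10, MCL1 and ZFP36L2 at the higher coordinate. A region needed a peak in each library of its group, overlapping by 1 bp or more. Numbers of genes per library were compared between siFOXA1 and siNT by an exact permutation test (Python 3.11.15, scipy 1.17.1, statsmodels 0.14.6). The steps were tested on simulated peaks. The genes, gene lists and markers were chosen with earlier results of these data known. All 10 genes are named, and of the other lists only the strongest FGFR1 gene and relatives of a named gene are given with values, besides the genes called. Alternatives were a -log10 q of at least 5, windows of 500 bp and 3 kb, reciprocal overlap of 50%, flanks of 10 and 50 kb, lists of equal length, each library left out and a replicate block. A window around the start alone and untransfected FGFR1 lists of equal length were added after seeing the data.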

Additional observations from a re-analysis of the deposited data

How the results depend on the processing

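The number of genes with FGFR1 at an end stayed lower with siFOXA1 than with siNT under every alternative run (range -4 to -3 genes, against -3.5). The labels do not say whether same-numbered libraries were prepared together. The correlation of the deviations of same-numbered libraries was 0.01 over 2420 genes, which cannot settle this. The main comparison treated the libraries as unpaired. With the replicate block the difference was -3.5, with an exact sign-flip p of 0.5, the smallest that 2 pairs allow. At a -log10 q of at least 5 the genes with a region in both libraries were 0 with siFOXA1 (against 1, since KLF10 had a -log10 q of 4.64 in siFOXA1 library 2) and 3 with siNT (against 5). No share over all genes stands beside these counts. With each siFOXA1 library left out in turn, the other alone gave 2 to 3 genes. For the siFOXA1 minus siNT difference and the counts of genes with a region at an end per group, 56 recomputed values kept their side and 4 moved. Most of these values were such counts, which compare no groups and of which several stood at all 10 genes. The 4 that moved were counts with siNT or siFOXA1. Of the other results 24 values kept their side and 13 moved. These 13 were counts outside the genes at flanks of 10 and 50 kb or at the stricter threshold, and overlap shares under reciprocal overlap of 50%, which became 0% for H3K27ac, 5.88% for H3K4me3, 58.8% for Pol II S5P and 35.3% for FOXA1. Reciprocal overlap asks for similar widths, and the widest histone regions of these genes had medians of 5086 bp (H3K4me3) and 9403 bp (H3K27ac), against 876 bp for FGFR1. The threshold of the lists, 10 fragments in transfected libraries, limits what a missing peak can show.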
